A study of Mus musculus with 24 samples.

Results

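The strongest binding sites of NELFE and of SPT5 were compared in control mouse embryonic stem cells, with 2 ChIP-seq libraries per antibody. NELFE belongs to the negative elongation factor complex (NELF) and SPT5 to the DRB sensitivity-inducing factor (DSIF). The regions of each deposited peak list on chr1 to chr19 were ranked by pileup, the mean ChIP coverage of a region, and the 10000 highest were taken from each list. This gave 40000 regions of the 1010589 that the 4 lists hold on these chromosomes, and of 1811308 rows in the 6 peak lists of control cells. Pileup at the threshold was 17.45 and 16.19 in the NELFE lists and 11.74 and 19.49 in the SPT5 lists, and the first region left out had the same value in each list. Rank 1 is the highest pileup throughout. Pileup is not scaled to a common depth, so only ranks were compared between libraries.

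All 4 libraries came from the E14 line with the genotype Nelfb deg and the treatment label Control, grown in serum and LIF. The genotype carries a tagged NELFB that dTAG-13 can remove. Every library analysed carries this allele, so wild-type cells are not represented. NELFE was precipitated with an anti-NELFe antibody and SPT5 with an anti-DSIF antibody. The 2 NELFB:HA libraries of the same control cells, precipitated through the HA tag on NELFB, served as a reference measured the same way. The degraded, naive and EpiLC samples of the series are not analysed here. Nothing in the labels says whether replicates were separate cultures, so p-values measure only the spread between these libraries.

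NELF and DSIF join RNA polymerase II shortly after it starts to transcribe and hold it paused downstream of the gene start. When the kinase P-TEFb phosphorylates the complex, NELF leaves and the polymerase is released. DSIF stays with the polymerase and travels along the gene as a positive elongation factor. Embryonic stem cells hold paused polymerase at many genes, including those of signalling and of the cell cycle. A ChIP-seq profile is an average over many cells, so more cells with a bound site and more factor per cell cannot be told apart.

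After the authors' filter the NELFE libraries held 40260648 and 28944909 tags and the SPT5 libraries 27324697 and 62312558. NELFE tags were 50 bases long and SPT5 tags 100 and 101 bases. Each NELFE library had its own input, of 32566070 and 26160905 tags, and the SPT5 libraries shared 1 of 50899697. Antibody, tag length and input therefore cannot be told apart in any comparison of NELFE with SPT5, and no within-batch value exists. The NELFB:HA libraries share the tag length of 50 bases with NELFE. SPT5 stood less far above its input than NELFE. The median fold enrichment of the top regions was 4.81 and 5.12 for NELFE against 2.73 and 2.67 for SPT5. Regions under 2-fold numbered 189 and 158 of 10000 for NELFE and 1427 and 1541 for SPT5.

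The promoter windows below, of 250 bases before and 50 after a RefSeq gene start (GRCm38.p6, the mm10 build), show the sequence at 6 sites on which the results turn. Each is on the minus strand of the genome and is written 5′ to 3′ along the gene. In the Gm32420, Polg and Grcc10 windows the capitals mark a whole small RNA gene that lies in the window. They belong to a NELFE site in neither SPT5 list (n-TAagc16, a tRNA gene, in the window of Gm32420, chr13:21222490-21222789), a site with better NELFE ranks (n-TRtcg5, a tRNA gene, window of Polg, chr7:79466224-79466523) and a site with better SPT5 ranks (Rnu7, the U7 RNA gene, window of Grcc10, chr6:124741020-124741319). The other windows belong to genes along which SPT5 regions ran far beyond NELFE, namely Dhx9 (chr1:153487611-153487910), Tet1 (chr10:62887275-62887574) and Rps3 (chr7:99483660-99483959). There the capitals mark GGGCGG (a GC box), TATAAA and CCGGAA (an ETS core) on either strand.
Gm32420 (n-TAagc16): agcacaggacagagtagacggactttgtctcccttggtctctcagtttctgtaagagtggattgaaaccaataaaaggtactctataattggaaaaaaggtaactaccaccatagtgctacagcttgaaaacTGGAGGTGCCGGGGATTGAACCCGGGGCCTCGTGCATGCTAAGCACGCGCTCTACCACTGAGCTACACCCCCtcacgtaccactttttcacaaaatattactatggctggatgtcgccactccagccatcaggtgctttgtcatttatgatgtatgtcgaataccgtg
Polg (n-TRtcg5): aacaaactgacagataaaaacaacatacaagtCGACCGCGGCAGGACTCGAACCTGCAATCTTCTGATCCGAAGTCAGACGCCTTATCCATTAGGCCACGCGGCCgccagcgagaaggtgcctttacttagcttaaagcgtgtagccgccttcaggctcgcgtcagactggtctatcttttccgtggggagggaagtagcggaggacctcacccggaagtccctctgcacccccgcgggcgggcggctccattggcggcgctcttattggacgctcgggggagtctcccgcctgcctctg
Grcc10 (Rnu7): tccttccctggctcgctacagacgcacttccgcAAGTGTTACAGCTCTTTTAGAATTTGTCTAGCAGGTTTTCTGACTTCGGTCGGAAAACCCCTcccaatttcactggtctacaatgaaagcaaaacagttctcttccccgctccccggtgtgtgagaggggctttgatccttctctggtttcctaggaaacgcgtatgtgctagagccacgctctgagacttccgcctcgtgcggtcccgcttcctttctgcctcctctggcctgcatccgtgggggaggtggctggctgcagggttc
Dhx9: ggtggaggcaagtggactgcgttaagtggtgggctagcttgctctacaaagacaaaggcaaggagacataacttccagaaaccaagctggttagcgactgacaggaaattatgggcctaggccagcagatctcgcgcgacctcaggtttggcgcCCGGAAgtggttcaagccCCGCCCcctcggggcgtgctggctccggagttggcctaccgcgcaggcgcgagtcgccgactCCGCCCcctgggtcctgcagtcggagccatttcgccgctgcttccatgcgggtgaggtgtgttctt
Tet1: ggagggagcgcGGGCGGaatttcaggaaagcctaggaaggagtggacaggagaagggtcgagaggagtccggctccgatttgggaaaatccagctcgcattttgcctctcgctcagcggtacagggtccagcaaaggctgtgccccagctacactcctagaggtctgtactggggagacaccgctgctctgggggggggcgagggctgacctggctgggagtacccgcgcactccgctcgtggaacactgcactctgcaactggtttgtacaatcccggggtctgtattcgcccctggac
Rps3: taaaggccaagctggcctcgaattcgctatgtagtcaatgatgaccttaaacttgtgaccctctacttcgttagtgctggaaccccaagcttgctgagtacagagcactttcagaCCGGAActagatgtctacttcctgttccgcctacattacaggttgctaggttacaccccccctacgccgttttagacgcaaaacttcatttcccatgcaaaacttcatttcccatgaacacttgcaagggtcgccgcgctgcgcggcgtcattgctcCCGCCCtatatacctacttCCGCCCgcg

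The capitals of the Gm32420 and Polg windows hold 1 match each to GGTTCNA, the core of the B box of the internal promoter that RNA polymerase III uses in tRNA genes. The Rnu7 window holds 0. This motif was chosen after the tRNA sites had been seen. Both strands were searched, and 3059 of 31396 promoter windows of the table (9.74%) hold a match. The Dhx9 window holds 2 GC boxes, the Tet1 window 1 and the Rps3 window 2. None of these 3 windows holds TATAAA on either strand.

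Both factors occupied largely the same places. Of the top NELFE regions, 82.9% ± 2.42 (SD over 4 library pairs, which share libraries) overlapped a top SPT5 region by at least 1 bp, with a range of 80.76% to 85.25%. Of the top SPT5 regions, 81.5% overlapped a top NELFE region (79.11% to 83.69%). The replicate lists overlapped by 90.68% and 91.0% for NELFE and by 83.95% and 84.27% for SPT5. Overlap between the antibodies thus lay close to that between the SPT5 replicates. It followed rank, being 98.3% for NELFE regions of ranks 1 to 1000, 95.6% for ranks 1001 to 5000 and 69.7% for ranks 5001 to 10000. In that last class the NELFE replicates overlapped by 82.0%. Against the full SPT5 lists, 97.8% of top NELFE regions had an overlapping row.

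Merging the 40000 regions wherever they shared a base gave 12893 sites. All 4 lists held 7218 of them (56.0%). Both NELFE lists and neither SPT5 list held 670 (5.20%), and both SPT5 lists and neither NELFE list held 558 (4.33%). The remaining classes held 924 sites of both NELFE lists and 1 SPT5 list, 433 of 1 NELFE list and both SPT5 lists, 437 of 1 list of each, 883 of 1 NELFE list alone and 1770 of 1 SPT5 list alone. A RefSeq gene start of a protein-coding gene or a long noncoding RNA lay in 76.2% of the sites of all 4 lists, in 47.6% of the NELFE-only sites and in 24.4% of the SPT5-only sites. Most sites of 1 antibody had a weaker row for the other. Of the 670 NELFE-only sites, 616 and 568 held a row of the full SPT5 lists, 338 and 459 of them within the 10000 ranks after the top list. Of the 558 SPT5-only sites, 436 and 444 held a row of the full NELFE lists, 367 and 366 at those ranks. The top NELFB:HA lists held 399 and 351 of the NELFE-only sites and 123 and 143 of the SPT5-only sites.

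The 6 sites with the lowest sums of ranks over the 4 libraries were the strongest shared sites by that measure. The lowest, chr11:3192991-3194040 inside Sfi1, ranked 3 and 2 for NELFE and 8 and 1 for SPT5, but its fold enrichment was only 1.52, 1.86, 1.59 and 1.17, so the input was also high there. The others were at Gm51701, a long noncoding RNA gene (ranks 24, 43, 35 and 9), within Drg1, a GTPase gene (26, 29, 59 and 65), at Nubp1, of iron-sulfur cluster assembly (22, 49, 73 and 44), at Mbtps1, the site-1 protease (85, 72, 71 and 16), and at Spg7, a mitochondrial protease gene (111, 8, 66 and 60). At Mbtps1 the fold was 15.2 and 13.9 for NELFE and 6.66 and 6.94 for SPT5. Those inside Sfi1 and Drg1 held 0 starts of the table. At Mbtps1 the NELFE regions spanned 1285 and 1740 bp and the SPT5 regions 2018 and 1039 bp.

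SPT5 differed from NELFE in the long tail of its regions more than in its typical region. The median width was 1711 and 1872 bp for NELFE and 2402 and 1954.5 bp for SPT5. Both SPT5 values lay above both NELFE values, but the second SPT5 library lay close to NELFE. The NELFB:HA medians of 1947 and 2121.5 bp also lay above both NELFE values. The means were 1791.5 ± 113.8 and 2178 ± 316 bp (SD, n = 2), a difference of -386.75 bp against a pooled SD of 238 bp (two-sided exact permutation p = 0.333, the smallest that 2 libraries against 2 allow). That difference was -163 bp without the first SPT5 library and -610.5 bp without the second. The 25th percentile of width was 1152 bp for NELFE and 1171.5 bp for SPT5, a difference within the pooled SD (exact permutation p = 1). At the 95th percentile the widths were 4409 and 4756 bp for NELFE and 10576 and 10045 bp for SPT5, a difference of -5728 bp against a pooled SD of 317 bp (exact permutation p = 0.333). Regions over 5 kb made up 2.88% and 4.27% of the NELFE lists and 19.13% and 14.97% of the SPT5 lists. They held 9.24% and 12.7% of the covered length for NELFE and 51.05% and 48.8% for SPT5, a difference of -38.9 percentage points against a pooled SD of 2.08 (exact permutation p = 0.333, adjusted p = 0.375 over 9 measures). For NELFB:HA the same share was 15.4% and 23.1%. The longest NELFE regions spanned 13501 and 16516 bp and the longest SPT5 regions 53686 and 64638 bp.

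**Figure D1:**
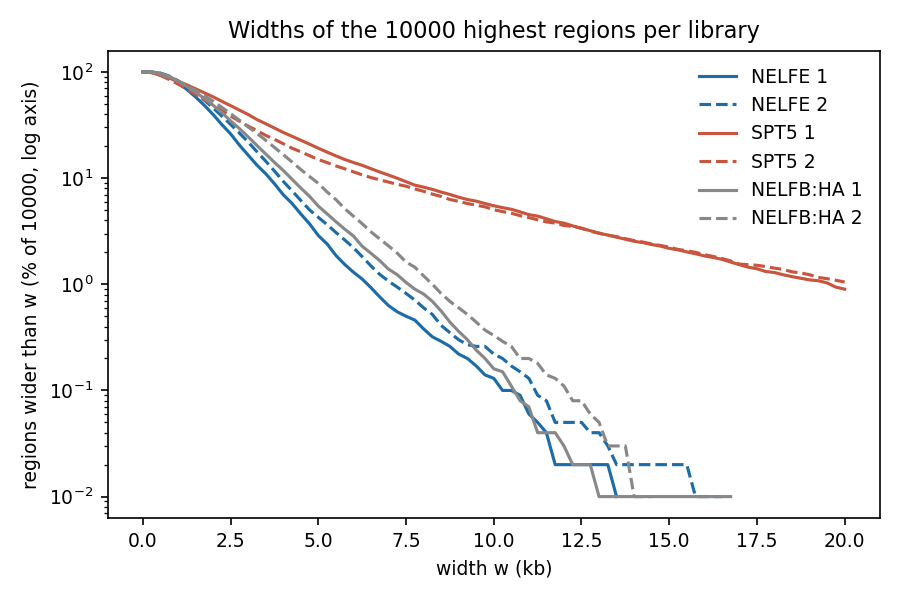
Share of the 10000 top regions of each library (percent, log axis) that are wider than the width on the x axis, with NELFE, SPT5 and NELFB:HA by colour and replicates 1 and 2 as solid and dashed lines. The SPT5 curves part from the others at large widths, with 19.13% and 14.97% of regions over 5 kb against 2.88% and 4.27% for NELFE.

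Long reaches beyond NELFE regions were more frequent for SPT5 than for either reference, while the median reach overlapped that of NELFB:HA. On the longer side the median reach of SPT5 beyond NELFE was 776 bp (546 to 1021 bp over 4 library pairs). The other NELFE library reached 300.5 bp and NELFB:HA 541 bp (395 to 687 bp) by the same measure. Beyond NELFE 1 the second SPT5 library reached 599 bp and the second NELFB:HA library 687 bp. Beyond NELFE 2 they reached 546 and 605 bp. SPT5 passed the NELFE region by over 2 kb on at least 1 side at 25.5% of sites (21.0% to 30.4%), against 6.26% for the other NELFE library and 13.03% for NELFB:HA. Beyond 5 kb the values were 10.1% (9.24% to 11.0%), 0.341% and 1.10%. Between the SPT5 replicates, SPT5 regions were passed by over 2 kb at 14.4% of sites (10.5% and 18.4%) and by over 5 kb at 3.66%. At 15.5% of sites (13.8% to 17.3%) SPT5 reached over 2 kb on 1 side and under 500 bp on the other, against 4.76% for the other NELFE library and 8.84% for NELFB:HA. As a part of the regions passed by over 2 kb this was no larger for SPT5 than for the references. The longer side was the same in both SPT5 libraries at 1143 of 1299 NELFE 1 regions passed by over 2 kb in both (88.0%) and at 1061 of 1183 NELFE 2 regions (89.7%). For reaches over 5 kb it was the same at 530 of 557 (95.2%) and 494 of 513 (96.3%).

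For SPT5 the side of the gene body was more often the longer one. This was measured at the 4584 to 4824 NELFE regions per pair that held gene starts of 1 strand only and overlapped SPT5. The median reach of SPT5 was 312 bp downstream (149 to 479.5 bp) and 30.8 bp upstream (-66 to 142 bp). The median of downstream minus upstream reach was 353 bp (316 to 381 bp) for SPT5, -3.25 bp for the other NELFE library and -2.25 bp for NELFB:HA. SPT5 passed NELFE by over 2 kb downstream at 19.9% of regions (17.1% to 23.1%) and upstream at 7.51% (5.19% to 9.93%). For NELFB:HA these shares were 6.67% and 6.64%, and for the other NELFE library 3.08% and 3.15%. Between the SPT5 replicates they were 9.52% downstream and 4.75% upstream, with a median of downstream minus upstream reach of 0.75 bp. The NELFB:HA libraries went opposite ways, with 5.21% downstream and 6.05% upstream of NELFE 1 regions for the first and 8.92% and 8.16% for the second. Beyond 5 kb SPT5 passed at 8.05% of regions downstream and 2.09% upstream. The downstream side was the longer one at 60.2% of regions (59.6% to 60.8%) for SPT5 and at 49.8% for both references. SPT5 also passed NELFE by over 2 kb on either side at 25.3% of the regions that held no gene start, where no direction can be given.

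**Figure D2:**
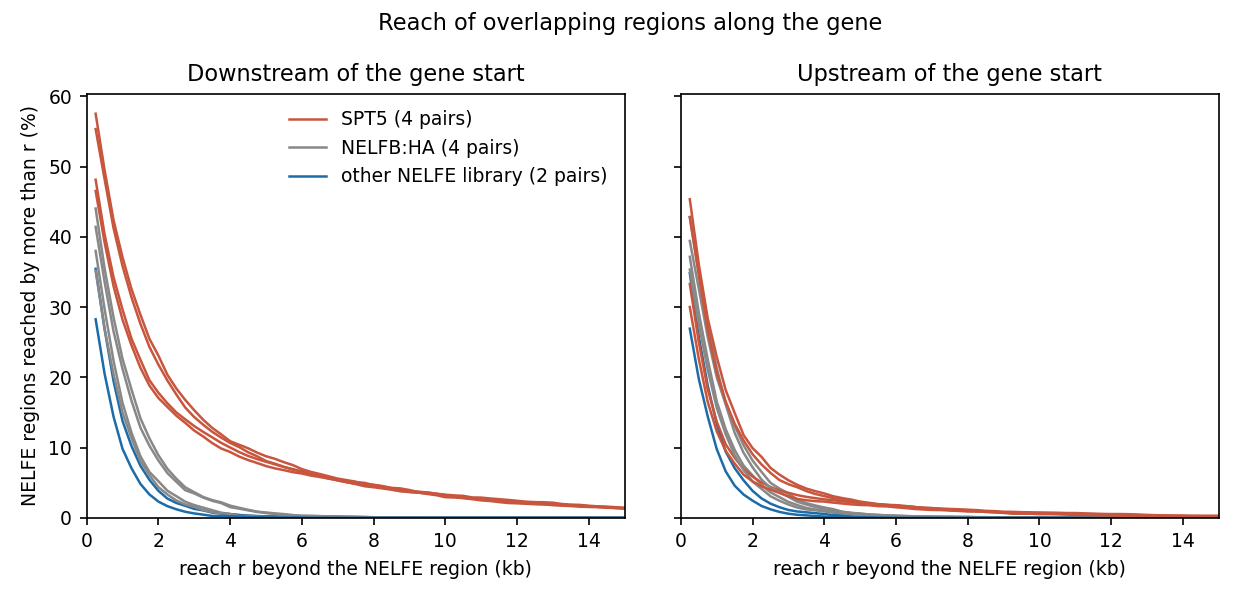
Share of NELFE regions with gene starts of 1 strand (percent) at which the compared list reaches further beyond the region than the distance on the x axis (kb), downstream of the gene on the left and upstream on the right. Red lines are the 4 SPT5 pairs, grey lines the 4 NELFB:HA pairs and blue lines the 2 pairs of NELFE replicates. Downstream all SPT5 lines lie above both references, with a mean of 19.9% over 2 kb, while upstream they mix with them at short distances, with 7.51% over 2 kb.

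The downstream reach was larger at the strongest NELFE regions. Among ranks 1 to 1000 its median was 1472 bp (1255 to 1674 bp), and 42.4% of regions were passed by over 2 kb downstream and 12.4% upstream. There NELFB:HA passed 11.1% downstream and 8.67% upstream. For ranks 1001 to 5000 the shares were 21.8% and 7.48%, and for ranks 5001 to 10000 they were 10.3% and 5.96%. Short genes were often covered to the end. At genes under 5 kb, SPT5 reached the gene end at 43.4% of regions (40.3% to 46.8%) and the NELFE region itself at 15.4%. At genes of 5 to 20 kb the shares were 6.54% and 0.148%. SPT5 reached the end of 0.849% of genes of 20 to 50 kb and of 0 longer ones. The reach depended on region ends, which lie where the authors' weak cutoff ends, so weaker coverage further into a gene is not counted.

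Of 25748 genes with a start in the table, 9204 had it in a merged site, and 6573 had it held by a region of each of the 4 lists. Both SPT5 regions ran over 2 kb further downstream than both NELFE regions at 652 of these 6573 genes, 9.92%. They ran over 2 kb further upstream at 282 genes, 4.29%, and reached the gene end at 479 genes, 7.29%. The longest was Dhx9, the gene of an RNA helicase. Its NELFE regions ended 2928 and 2324 bp and its SPT5 regions 47172 and 44975 bp downstream of the start, past the end of the gene at 31904 bp. At Hnrnpc, of an RNA-binding protein of unspliced transcripts, the ends were 1904 and 491 bp for NELFE and 40230 and 41542 bp for SPT5. Those of Nop58, a core protein of box C/D small nucleolar ribonucleoproteins, were 946 and 879 bp against 39609 and 38100 bp. The merged site of Nfs1, Romo1 and Rbm39 had SPT5 at least 35483 bp beyond NELFE in every pair. A site on chr18 with Etf1 and Hspa9 had at least 37663 bp, and the site chr12:86463273-86518389 inside Esrrb, a pluripotency factor, had at least 35078 bp. The sites were chosen for this reach, so it is a description. Those of Hnrnpc, Nop58 and Etf1 with Hspa9 also hold small nucleolar RNA genes, and several of the SPT5 regions span more than 1 gene.

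At ribosomal protein genes SPT5 covered the whole gene and NELFE its start. These genes are short and highly transcribed. All 29 of the 40 listed genes with a start in the table had it held by all 4 lists. SPT5 ran over 2 kb further downstream at 24 of 29 and over 2 kb further upstream at 0, and it reached the gene end at 29. Over all genes held these shares were 9.92%, 4.29% and 7.29%. The median length of the 29 genes was 3268 bp, and at genes under 5 kb SPT5 reached the end at 43.4% of regions. The median downstream end was 1332 and 1699 bp for NELFE and 8190 and 8196 bp for SPT5, against 875, 971, 1474 and 1193 bp over all 6573 genes. The median ranks were 361 and 545 for NELFE and 1279 and 1509 for SPT5. At Rps3, of the small subunit, NELFE ended 928 and 920 bp and SPT5 13546 and 12994 bp downstream, with ranks 231 and 208 against 4653 and 4340. At Rpl4, of the large subunit, the ends were 1924 and 2105 bp against 16941 and 13026 bp. Rplp0, of the ribosomal stalk, ended at 573 and 1437 bp against 10691 and 8294 bp, and Rps19 at 1291 and 2327 bp against 13372 and 12752 bp. Rpl13a went against the list in rank. It ranked 1961 and 1649 for NELFE and 358 and 587 for SPT5, with ends of 2476 and 5487 bp against 12439 and 14161 bp.

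Other genes of translation and housekeeping had region ends close to these. All 21 with a start in the table, of 28 listed, were held by all 4 lists. SPT5 was over 2 kb further downstream at 15 (71.4%) and at the gene end at 15, against 9.92% and 7.29% of all genes held. The median length of the 21 genes was 4381 bp, and at genes under 5 kb SPT5 reached the end at 43.4% of regions. The median downstream end was 1482 and 1746 bp for NELFE and 8011 and 7181 bp for SPT5. At Ncl, of the nucleolar protein nucleolin, NELFE ended at 914 and 3640 bp and SPT5 at 21697 and 20556 bp, with ranks 36 and 114 against 1411 and 1357. Rack1, of a ribosome-bound scaffold, had ends of 2341 and 1769 bp against 17913 and 12993 bp. Hspd1 and Hspe1, chaperonin genes that share a start region, ranked 283 and 818 for NELFE and 6099 and 6146 for SPT5. Eif4a1, of an initiation factor helicase, ranked high with both antibodies, at 124 and 68 against 110 and 194. Actg1, of cytoplasmic actin, ranked better for SPT5, at 214 and 165 against 851 and 554.

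**Figure D3:**
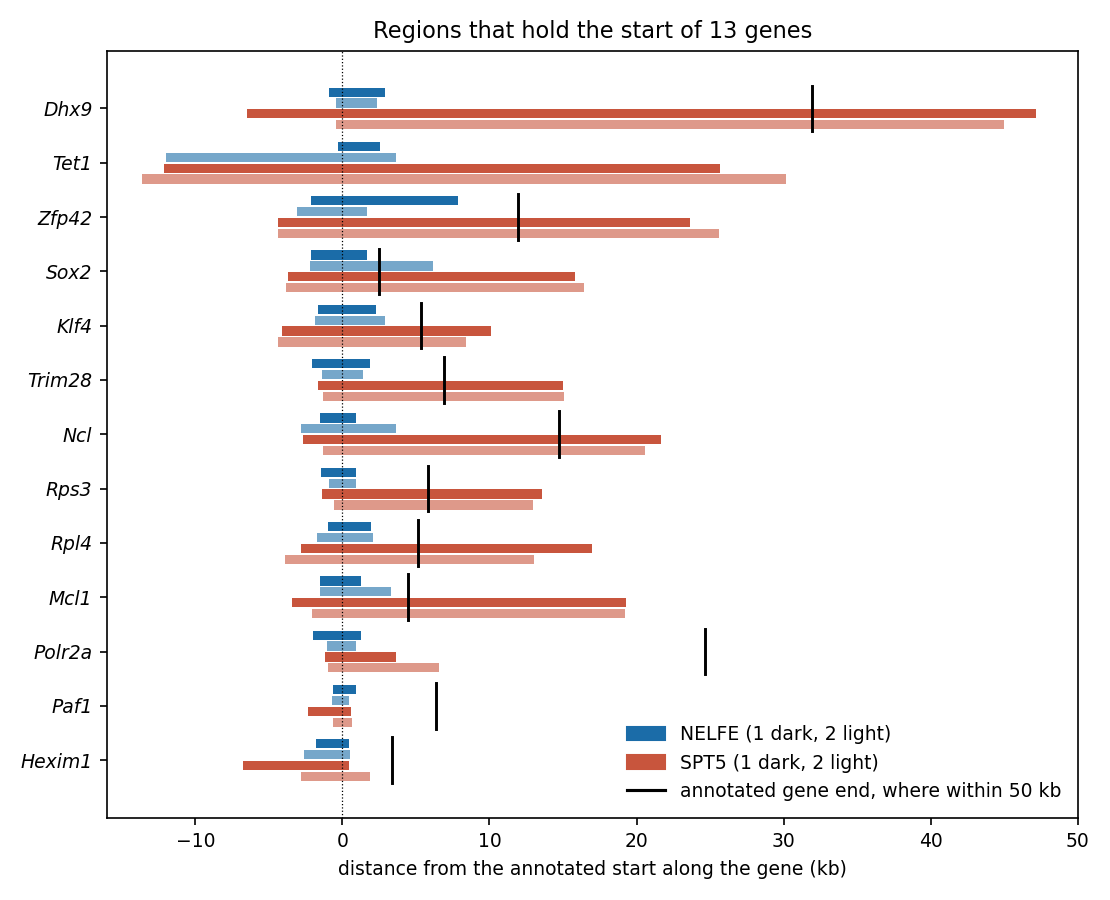
Extent of the NELFE and SPT5 regions that hold the start of 13 genes, by library, in kb from the gene start along the gene; a black tick marks the gene end where it lies within the plotted range. SPT5 regions run further into the body of Dhx9 (47172 and 44975 bp) and Tet1 than NELFE regions do, while at Paf1 they end at 589 and 627 bp. Not every NELFE region is short. At Tet1 the region of the second NELFE library reaches 12007 bp upstream, and the NELFE replicates differ at Sox2 and Zfp42.

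Pluripotency genes had the largest median downstream difference between SPT5 and NELFE, 9442 bp, of the lists with genes held by all 4, against 6525.5 bp at ribosomal protein genes and 392.5 bp over all genes held. Of 25 listed genes 15 had a start in the table, and 12 were held by all 4 lists. SPT5 ran over 2 kb further downstream at 10 of the 12 and reached the gene end at 8, against 9.92% and 7.29% of all genes held. The median length of the 12 genes was 5944 bp, against 19854 bp over all genes held. The median downstream end was 2112.5 and 2264 bp for NELFE and 12295 and 12133.5 bp for SPT5. At Sox2 NELFE ended at 1705 and 6134 bp and SPT5 at 15795 and 16396 bp. At Zfp42, the marker also known as Rex1, the ends were 7844 and 1680 bp against 23609 and 25610 bp. At Tet1, which oxidises methylated cytosine, they were 2562 and 3667 bp against 25673 and 30165 bp. Tfcp2l1, of a naive-state factor, had 1459 and 686 bp against 18372 and 16038 bp, and Tdgf1, of a Nodal co-receptor, had 1953 and 2450 bp against 14451 and 15391 bp. The NELFE replicates differed at Sox2 and Zfp42, where 1 of them ran further, but SPT5 exceeded both downstream at each of these genes. Upstream of the Tet1 start the NELFE regions reached 311 and 12007 bp and the SPT5 regions 12125 and 13644 bp. Pou5f1, the gene of OCT4, went the other way, with NELFE ending at 1909 and 1564 bp and SPT5 at 471 and 790 bp. The start of Nanog lay in SPT5 regions of rank 6928 and 6894 in a site of all 4 lists, and in 0 of the top NELFE regions.

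In rank, pluripotency genes went both ways, while the housekeeping lists held more calls for NELFE than for SPT5. A site was called for an antibody where both of its ranks were better than both of the other by at least 1000 places. Over all 7218 sites of all 4 lists, 14.0% were called for SPT5, 12.6% for NELFE and 26.6% for either. Of the 13 pluripotency genes in such sites 6 were called for SPT5 and 2 for NELFE. Both SPT5 ranks were better at 7 of the 12 genes held, and both NELFE ranks at 5. Of all 7218 sites 27.7% and 25.8% have these orders. The median ranks of the 12 genes were 3989.5 and 3418 for NELFE and 3690 and 3719 for SPT5. Klf4, a reprogramming factor, ranked 2355 and 2962 for NELFE and 961 and 1142 for SPT5, and Klf2 ranked 1327 and 2049 against 283 and 200. Sox2 ranked 4954 and 5768 against 2359 and 2524. The calls for NELFE were Lin28a, of an inhibitor of let-7 maturation (3393 and 3254 against 6501 and 7729), and Utf1. Trim28, a co-repressor of retroelements, missed the call with 348 and 176 against 1177 and 1586, while its ends were 1897 and 1428 bp against 15033 and 15099 bp. Of the ribosomal protein genes 10 of 29 were called for NELFE and 1 for SPT5, and of the translation and housekeeping genes 5 of 21 and 0.

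Immediate-early genes, which signals induce without new protein synthesis, showed a median downstream difference of 1354 bp. This was smaller than in the 3 lists above but larger than the 392.5 bp over all genes held. Of 22 listed, 19 had a start in the table and 17 were held by all 4 lists. SPT5 ran over 2 kb further downstream at 7 (41.2%) and reached the end at 11 (64.7%), against 9.92% and 7.29% of all genes held. The median length of the 17 genes was 3384 bp, and at genes under 5 kb SPT5 reached the end at 43.4% of regions. In the sites of all 4 lists 4 of 18 were called for NELFE and 1 for SPT5, where 13.9% and 11.5% of all genes in such sites were. These calls rest on few genes. Dusp1, a phosphatase of MAP kinases, ranked 268 and 105 for NELFE and 2397 and 3219 for SPT5, with ends at 833 and 602 bp against 6137 and 6107 bp. Klf6 ranked 520 and 555 against 4280 and 5384, Btg2, an antiproliferative gene, 535 and 341 against 2601 and 4808, and Jun, of an AP-1 subunit, 1794 and 2373 against 3718 and 3932. Srf, the factor of the serum response element, was the call for SPT5, with 4577 and 5542 against 2636 and 1813. Mcl1, a survival gene, had similar ranks with both antibodies (656 and 202 against 734 and 756) but ends of 1253 and 3284 bp against 19302 and 19241 bp.

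At the genes of the pausing and elongation machinery itself the median downstream difference was 1120.5 bp, against 392.5 bp over all genes held. All 19 with a start in the table, of 25 listed, were held by all 4 lists. SPT5 ran over 2 kb further downstream at 1 of them, Polr2a (5.26%), near the 9.92% of all genes held. It reached the end of 0, where the share over all genes held was 7.29%. The median downstream end was 998 and 795 bp for NELFE and 1459 and 2107 bp for SPT5, against 875, 971, 1474 and 1193 bp over all genes held. Polr2a, of the largest polymerase II subunit, ranked 32 and 6 for NELFE and 80 and 462 for SPT5, with ends at 1250 and 908 bp against 3659 and 6551 bp. Supt5, which encodes SPT5, ranked 2045 and 1071 for NELFE and 116 and 152 for SPT5, with ends at 423 and 896 bp against 603 and 621 bp. Paf1, of an elongation complex, ended at 937 and 427 bp against 589 and 627 bp. Cdc73, of the same complex, and Supt6, of a histone chaperone, were called for SPT5. Larp7, of the 7SK particle that holds P-TEFb inactive, was called for NELFE, with ranks of 1462 and 1331 against 6507 and 4413. Nelfa ranked 826 and 476 against 486 and 1102, and Nelfb, the tagged gene, 2538 and 1515 against 2317 and 2281, with no call for either.

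The noncoding RNA genes of the list were mostly short, with a median length of 2346 bp at those held, against 19854 bp over all genes held. Of 15 listed 8 had a start in the table, and 7 were held by all 4 lists. SPT5 reached the end of all 7, against 7.29% of all genes held and 43.4% of regions at genes under 5 kb. The median downstream end was 1635 and 2289 bp for NELFE and 6864 and 9490 bp for SPT5. Malat1, of a nuclear RNA, ranked 570 and 39 for NELFE and 199 and 99 for SPT5, with ends at 1635 and 815 bp against 9963 and 9490 bp. Gas5, a host of small nucleolar RNAs, ended at 3211 and 3503 bp against 12536 and 11083 bp. Snhg1 was called for SPT5 (2570 and 1483 against 265 and 122) and Snhg3 for NELFE.

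Histone genes that are expressed in S phase ranked near the top of the SPT5 lists. Of 62 genes matched by prefix, 51 were held by all 4 lists. Median ranks were 849 and 929 for NELFE and 114 and 89 for SPT5. Both SPT5 ranks were better than both NELFE ranks at 43 of the 51 genes, 84.3%, where 27.7% of the 7218 sites have that order. Many of these genes share regions, with 31 distinct combinations of regions over the 51 genes, so they are not independent. At H4c1 the ranks were 384 and 404 for NELFE and 43 and 15 for SPT5, and at H2ac7 1387 and 929 against 97 and 53. The 1000-place call took in only 4 of 52 genes for SPT5, since a NELFE rank under 1000 leaves no room for it. The reverse order, with a share of 25.8% over all sites, was found at 2, H1f0 and H1f10, linker histone genes that are expressed outside S phase. The copies are near-identical in sequence, and tags of 50 and 100 bases differ in how well they place there, which was not tested.

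Bivalent lineage regulators, developmental genes held silent in these cells, were mostly absent from the top lists. Of 14 with a start in the table, of 24 listed, 0 were held by all 4 lists. The share held was 25.5% of all genes in the table and 35.7% of its protein-coding genes. Foxa2, of endoderm, and Hoxd13 lay in sites of both NELFE lists and neither SPT5 list, with NELFE ranks of 8720 and 9878 and of 8246 and 8777. The remaining 12 lay in no merged site. Against this, 12 of 15 pluripotency genes were held by all 4, which is the check of the labelled cell type that these lists allow.

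Calls in rank went together with width. The median difference in rank at a site was 805.5 places between the NELFE replicates, 1196 between the SPT5 replicates and 1439 to 1544 between antibodies. Spearman's rho of the ranks over the 7218 sites was 0.866 for NELFE replicates, 0.673 for SPT5 replicates and 0.549 to 0.565 across antibodies, as a description over sites that share libraries. There were 1010 calls for SPT5 and 909 for NELFE. At sites called for NELFE the SPT5 region was a median of 2.76 times as wide as the NELFE region, at sites called for SPT5 0.918 times and at the other sites 1.29 times. SPT5 regions over 5 kb in both libraries were found at 398 of the NELFE calls (43.8%), 88 of the SPT5 calls (8.71%) and 491 of the other sites (9.27%). Where SPT5 was over 4 times as wide, 268 of 420 sites (63.8%) were called for NELFE and 12 for SPT5. Pileup is a mean over the region, so by construction a long region with a weak tail ranks below a narrow one with the same summit. Among the 1963 sites of similar width (ratio 0.8 to 1.25), 373 were called for SPT5 and 74 (3.77%) for NELFE, the reverse of the balance among the widest.

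**Figure D4:**
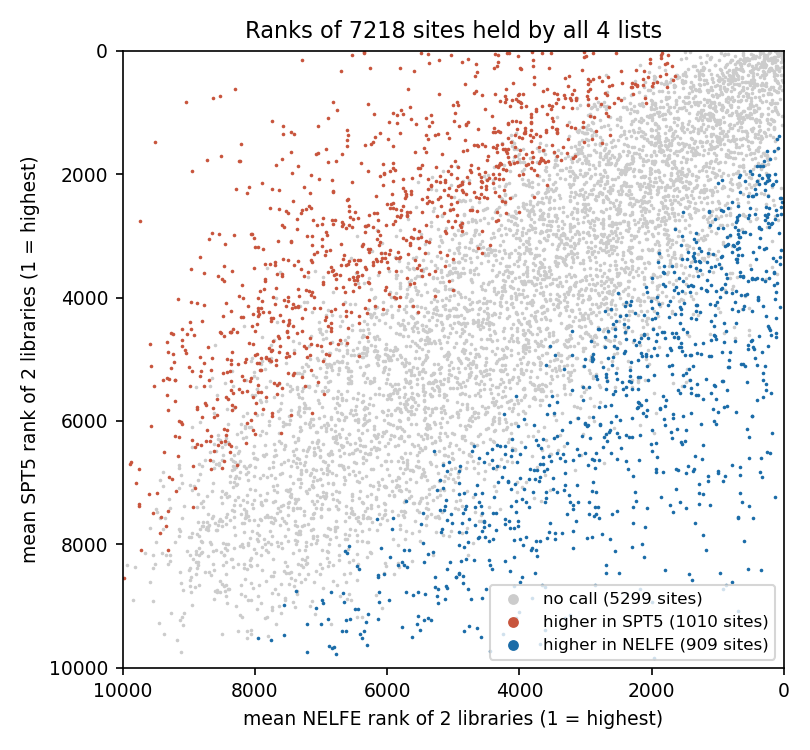
Mean NELFE rank against mean SPT5 rank of the 7218 sites held by all 4 lists, where rank 1 is the highest pileup; colours mark the 1010 sites called for SPT5, the 909 called for NELFE and the others. Called sites lie on either side of the diagonal, and those with the best SPT5 ranks include sites of poor NELFE rank.

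The sites with the largest rank gaps differed in kind. Towards NELFE, most were promoters that opened a long SPT5 region. Dhx9 (chr1:153440488-153495182) ranked 1287 and 628 for NELFE and 8834 and 8085 for SPT5, with NELFE widths of 3860 and 3048 bp and SPT5 widths of 53686 and 45386 bp. The site of Rfc5, of the clamp loader of DNA replication, and Gm15728 ranked 775 and 619 against 8549 and 9622. Snrpe, of the spliceosomal core, ranked 901 and 652 against 9003 and 8207, and Eif4b, of translation initiation, 1964 and 2026 against 8923 and 8957. The sites of Alkbh1 with Slirp (1017 and 740 against 9192 and 8126), of Ttc17 with 2810002D19Rik (374 and 324 against 9766 and 7074) and of Smad7, an inhibitory SMAD gene on chr18 (552 and 647 against 7499 and 8378), were alike. In each the narrower SPT5 region was wider than both NELFE regions. The exception was the cluster of 5 tRNA genes at chr3:96496460-96503369, with ranks of 1756 and 2184 against 9724 and 9961. There NELFE spanned 6732 and 5895 bp and SPT5 1825 and 1625 bp.

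Towards SPT5, some sites had a low fold, and the SPT5 regions spanned 416 to 6481 bp. A better SPT5 rank did not mean a higher SPT5 fold. Over all sites called for SPT5 the median fold was 4.194 and 4.502 for NELFE and 3.143 and 2.969 for SPT5. Over sites called for neither it was 5.666 and 6.031 against 3.017 and 2.947. The site of 2410141K09Rik, a zinc finger gene, ranked 9697 and 9318 for NELFE and 1752 and 1221 for SPT5. Its folds were 2.42 and 4.33 for NELFE and 1.87 and 1.84 for SPT5. A site at chr4:146167211-146168463 inside Zfp600 ranked 8056 and 9003 against 643 and 839, with SPT5 folds of 1.62 and 1.37. Sites at chr8:20424084-20424992, over a pseudogene, and chr17:14989211-14990950, over 9030025P20Rik and Gm3255, ranked 9724 and 8358 against 750 and 897 and 8017 and 6558 against 91 and 198. Med18, of the Mediator complex, ranked 8316 and 8103 against 1554 and 1457, and Zbtb45 9793 and 9682 against 3475 and 2045. A site inside Tacc1 at chr8:25200803-25203924 ranked 7445 and 9160 against 677 and 547. The site chr11:87469493-87474543 holds Rnu3b2, a U3 RNA gene, inside Tex14. It ranked 8150 and 9121 for NELFE, where its fold was 4.13 and 3.67, and 588 and 947 for SPT5, with folds of 7.39 and 6.63. It was the only one of these named sites with both SPT5 folds above both NELFE folds. At 2410141K09Rik and at chr8:20424084-20424992 both NELFE folds were the higher ones, and at the others the order was mixed.

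Small RNA genes differed between the antibodies. They were looked at after the best NELFE-only sites had been seen to hold tRNA genes, so their counts are a description. tRNA genes are transcribed by RNA polymerase III. Of 391 tRNA genes of the table on chr1 to chr19, 265 (67.8%) lay in a top region of each NELFE library, against 54 (13.8%) and 41 (10.5%) for SPT5. For NELFB:HA, another NELF subunit read with tags of the NELFE length, the counts were 52 (13.3%) and 54 (13.8%), as low as for SPT5. The difference was as large away from promoters. Of 323 tRNA genes over 2 kb from a protein-coding or long noncoding RNA start, 204 and 205 lay in top NELFE regions, 28 and 16 in SPT5 regions and 23 and 24 in NELFB:HA regions.

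**Figure D5:**
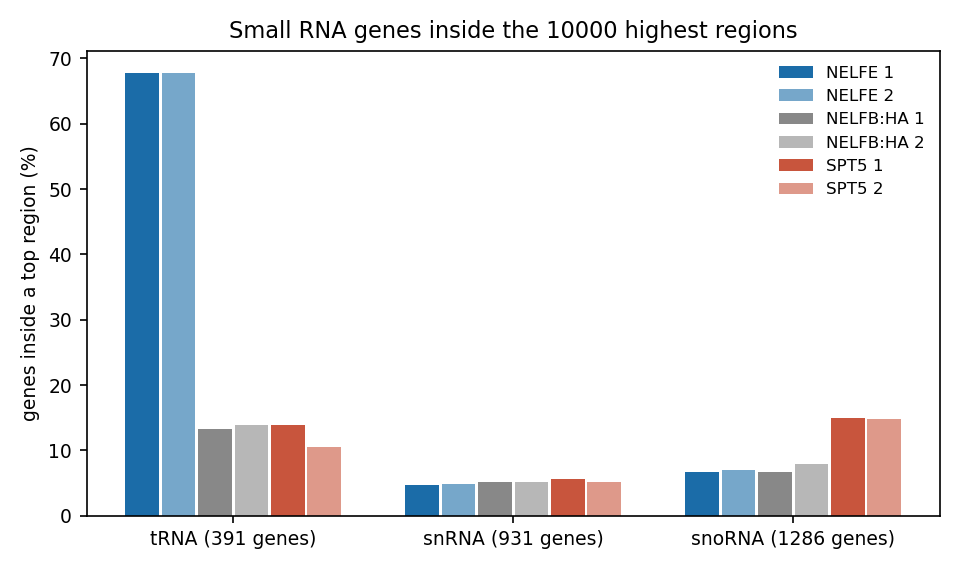
Share of the tRNA (391), snRNA (931) and snoRNA (1286) genes of the RefSeq table on chr1 to chr19 that lie in a top region, by library (percent, bars from 0). The NELFE bars reach 67.8% for tRNA genes against 13.8% and 10.5% for SPT5, and the SPT5 bars are the highest for snoRNA genes.

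Of the 670 NELFE-only sites, 100 held a tRNA gene (14.9%, 95% Wilson interval 12.4 to 17.8, which covers counting error alone), against 44 of the 7218 sites of all 4 lists (0.610%) and 0 of the 558 SPT5-only sites. Only 14 of the 100 had a protein-coding or long noncoding RNA start. Over the 100 sites the median fold was 6.94 and 7.13 for NELFE, 1.73 and 1.59 for SPT5 (over the 74 and 53 sites with a row in its full lists) and 1.75 and 1.75 for NELFB:HA. The best-ranked NELFE-only sites all held tRNA genes. The site chr11:58301870-58303795 at Gm39827 holds n-TEctc10 and n-TLcaa3, and it ranked 103 and 102 for NELFE with folds of 18.6 and 12.1. Its SPT5 rows ranked 52268 and 54033 in the full lists, with folds of 1.76 and 1.54. The site chr11:48833560-48834810, in Trim7 with n-TKctt10 and n-TAtgc9, ranked 585 and 374 and had no SPT5 row. The others were chr1:171033029-171038955 at Gm35090 (438 and 917) and chr11:69039212-69043031 (408 and 951). The site of n-TAagc16, whose sequence is printed above, spans chr13:21221767-21223686. It ranked 972 and 2272 for NELFE with folds of 9.63 and 7.91, and its only SPT5 row ranked 142256 in the first full list. Among the 44 tRNA sites of all 4 lists 18 (40.9%) were called for NELFE and 1 for SPT5. The site of n-TRtcg5 before Polg, of the mitochondrial DNA polymerase, was one of them, with 316 and 1563 against 5769 and 4938.

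Small nuclear RNA genes were ordered the other way. These genes, of spliceosomal and related RNAs, are short and mostly transcribed by RNA polymerase II. Of 56 sites of all 4 lists with an snRNA gene, 30 (53.6%) were called for SPT5, where 14.0% of all sites were, and 7 for NELFE. Their median ranks were 3313 and 3110.5 for NELFE and 596.5 and 510.5 for SPT5. Of 23 genes with a symbol starting Rnu, 11 lay in a merged site, and 9 of these were called for SPT5 and 0 for NELFE. Their median ranks were 3109 and 3107 for NELFE, 103 and 45 for SPT5 and 2434 and 2131 for NELFB:HA. Rnu5g, of U5 RNA, ranked 3741 and 2309 for NELFE and 34 and 13 for SPT5. Rnu1a1, of U1 RNA, ranked 2331 and 1347 against 55 and 14, and Rnu3a, of U3 RNA, 2184 and 1312 against 101 and 45. Rnu2-10, of U2 RNA, ranked 4399 and 5144 against 213 and 56. Rnu7, of the U7 RNA that processes histone transcripts, ranked 3109 and 4460 against 313 and 549, with folds of 6.53, 5.69, 5.12 and 4.20. Rnu11 and Rnu12, of the minor spliceosome, ranked 688 and 313 against 103 and 10 and 831 and 218 against 81 and 356, which was the pair without a call. snRNA genes have many near-identical copies, and NELFB:HA, with 50-base tags, ranked near NELFE, so tag length and antibody cannot be told apart here.

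Small nucleolar RNA genes, most of which lie in introns of host genes, were in top SPT5 regions more often than in NELFE regions. Of 1286 genes, 192 and 190 lay in SPT5 regions and 86 and 90 in NELFE regions. The top SPT5 regions also covered more sequence, 34.9 and 31.4 Mb against 20.0 and 22.0 Mb for NELFE, and the part of this was not tested. MicroRNA genes were likewise more often in SPT5 regions (135 and 123 of 1136) than in NELFE regions (92 and 99). The snoRNA genes were found at 45 of the 909 sites called for NELFE (4.95%) and at 5 of the 1010 called for SPT5 (0.495%). Over all 7218 sites of all 4 lists 100 held one (1.39%). These NELFE calls belong to sites such as that of Nop58, where the snoRNA genes lay under the long SPT5 region. Among sites of both SPT5 lists and neither NELFE list, the best ranked were chr2:75669125-75674019 inside Hnrnpa3, of an RNA-binding protein (254 and 126, with NELFE rows at 116519 and 15268 in the full lists), chr3:149052516-149052879 (161 and 416), chr4:153152950-153154380 at Gm31055 (86 and 532) and chr12:54734522-54734855 at an snRNA gene (169 and 752). The last of these had SPT5 folds of 10.8 and 7.68 and no NELFE row.

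Gene starts were held slightly more often by NELFE regions, and the order depended on which rows were taken. The share of regions that held a start was 67.84% and 67.94% for NELFE and 61.53% and 64.14% for SPT5, a difference of 5.06 percentage points against a pooled SD of 1.31 (exact permutation p = 0.333). Among rows at a deposited q-value of 0.01 or less the difference was -7.67. The promoter windows of the 6573 genes held by all 4 lists were rich in C and G, with a median of 63.3% against 53% over the 31396 windows of the table. GGGCGG on either strand was found in 72.4% of them, against 36.0% of all windows, and CCGGAA in 36.2% against 15.1%. ATGGCGG, a core of YY1 sites, was found in 11.7% against 4.07%, and GCGCATG, a part of NRF1 sites, in 9.27% against 3.90%. Most of the genes held were protein-coding (5877 of 6573), and against protein-coding windows alone the contrasts were smaller. Those 20085 windows had a median of 57% C and G. They held GGGCGG in 47.0%, CCGGAA in 19.1%, ATGGCGG in 5.29% and GCGCATG in 4.84%. Windows of the 652 genes with long downstream SPT5 held GGGCGG as often (72.4%) as those of the other 5921 genes (72.4%). TATAAA was found in 61 of 652 (9.36%) and in 316 of 5921 (5.34%), against 13.6% of all windows. These are matches of letters in a fixed window and were not tested.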

How the data were processed

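The authors called broad peaks on each library against an input with MACS 2.1.1.20160309, with p-value cutoffs of 0.01 for strong and 0.1 for linking regions and tags extended to 227 bp (NELFE, NELFB:HA) or 206 bp (SPT5), per the file headers. Bowtie2, deepTools, MACS2 and the mm10 build are listed in the submitters' processing notes. The deposited pileup is a coverage signal, a mean over the region. The deposited fold enrichment is its ratio to local input. The authors also give each region a p-value and a q-value, both as −log10, and the q-value column is filled although the headers say that q was not calculated. The region length is the authors' own.

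Rows were ranked by pileup within a list on chr1 to chr19, and the 10000 highest were kept. Equal values were ordered by p-value, then fold enrichment, then position. Regions sharing at least 1 bp were merged into sites, and a site's rank was its best. Gene starts came from the 31396 RefSeq promoter windows (GRCm38.p6, coordinates from 1). Reach is the distance by which overlapping regions pass a NELFE region, with negative values inside it. Values per library were compared by two-sided exact permutation tests, which cannot go below 0.333 with 2 libraries against 2, and adjusted by Benjamini-Hochberg over 9 measures. Intervals are 95% Wilson and cover counting error alone.

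The sites and genes named were the 8 with the largest rank gap in each direction, the 6 with the longest reach, the 6 with the lowest rank sum, the 4 best of each antibody alone, and members of 8 gene lists. List examples were widened after their values were seen. The members and lists were chosen with earlier results of these data known. Python 3.11.15 with numpy 2.4.6, pandas 2.3.3, scipy 1.17.1 and matplotlib 3.10.9 were used. The calculations were tested on the first NELFE list with known changes put into it. Alternatives were other list lengths, ranking by fold, stricter overlap, X and Y, and leaving out libraries.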

Additional observations from a re-analysis of the deposited data

How the results depend on the processing

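Of 187 alternative values for 14 results, 134 stayed close to the reported value, 52 moved and 1 reversed. The cause was not tested where none is given. With regions ranked by fold enrichment, 72.4% of NELFE regions overlapped SPT5 and 71.0% the other way, downstream minus upstream reach was 400.25 bp, and NELFE-only and SPT5-only sites numbered 1154 and 333. With 5000 regions per list the overlaps were 74.8% and 73.8%, that reach was 454.5 bp, 2960 sites were in all lists, and 269 sites were called for SPT5 and 270 for NELFE. With 20000 regions the overlaps were 65.7% and 64.1%, the reach was 274.5 bp, the longer side was the same in both SPT5 libraries at 86.0% of regions, 1570 and 1096 sites were of NELFE and SPT5 alone, and 1649 and 1548 were called for SPT5 and NELFE. Counts of sites move with the list length by construction. With all rows at a q-value of 0.01 or less, which was added after seeing the data, the overlaps were 64.8% and 95.1%, the reach was 405 bp, 2133 and 97 sites were of NELFE and SPT5 alone, and the difference in regions holding a start reversed to -7.67 percentage points. Requiring 50% overlap, adding X and Y, and allowing 1 kb around starts moved no result by these rules. Using each NELFE region only where it was the sole one in an SPT5 region also moved none.

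Leaving out 1 library at a time gave a median width difference of -610.5 to -163 bp, a difference in covered length over 5 kb of -40.7 to -37.2 percentage points, 211 to 224 more tRNA genes in NELFE lists, and reach over 2 kb at 21.6% to 29.4% of sites. It gave 945 to 1330 NELFE-only and 777 to 1736 SPT5-only sites, 1612 to 1866 calls for SPT5 and 1289 to 1930 for NELFE. Leaving out replicate 1 or replicate 2 of both antibodies, which leaves 1 library of each, gave -82.5 or -691 bp, -36.0 or -41.8 percentage points, 21.0% or 30.4%, 1525 or 1924 and 1651 or 2089 sites, and 2727 or 2644 and 2502 or 2492 calls. Counts grow since fewer lists have to meet each condition. The file headers number the NELFE libraries 2 and 3 where the titles have 1 and 2, so same-numbered values rest on the titles. The libraries share only a number, since the replicate differences of ranks did not go together across antibodies (Pearson r -0.0368). With same-numbered libraries as a replicate block, the overlaps were 82.8% and 81.3%, the width difference was -386.75 bp (SD of differences 430), the length difference -38.9 percentage points (SD 4.08), the difference in starts 5.06 (SD 1.77), the tRNA difference 217.5 genes (SD 9.19), reach over 2 kb 25.7% and downstream minus upstream reach 357.5 bp. The longer side was the same at 88.1%, and 1279 and 1132 sites were called for SPT5 and NELFE. Depth ranged from 27324697 to 62312558 tags, and sites near the rank limit are the least certain, since at ranks 5001 to 10000 the replicates overlapped by 82.0% for NELFE and 70.7% for SPT5.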
